A study of Mus musculus with 23 samples.

Results

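Claudins and their partners at the tight junction were examined across mouse small intestinal organoids and intestine with and without Rptor, the gene of Raptor, an essential part of mTORC1. The set holds 10 genes of the 22350 protein-coding genes quantified: 7 claudins (Cldn2, Cldn3, Cldn4, Cldn7, Cldn8, Cldn15 and Cldn23), the scaffold Tjp1, the membrane protein Ocln and the adhesion molecule F11r. They were chosen by name, and the reads of all annotated protein-coding transcripts of each gene were summed. All 10 were found in each of the 3 tables of transcripts.

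The study profiled RNA (RNA-seq) and ribosome footprints (Ribo-seq, the sequencing of the mRNA pieces that ribosomes protect) in C57BL/6 material. RNA-seq covered 2 WT organoid lines (VillinCre.ERT2.RPL22.HA), 2 Rptor fl/fl lines (VillinCre.ERT2.Rptor.fl/fl), each as 2 technical libraries that were summed, and 3 stem cell enriched (SCe) organoid cultures. The SCe cultures carry VillinCre.ERT2.RPL22.HA and were grown in ENR medium with 10 µM CHIR 99021, a GSK3 inhibitor that raises WNT signalling, and 1.5 mM valproic acid. Ribo-seq covered 3 Rptor fl/fl organoid samples (VillinCre.ERT2.Rptor.fl/fl.RPL22.HA), 3 SCe organoid samples, 3 WT mice (Lgr5Cre.ERT2.RPL22.HA) and 3 Rptor fl/fl mice (Lgr5Cre.ERT2.Rptor.fl/fl.RPL22.HA). All groups carry a tamoxifen-inducible Cre, driven by the Villin promoter of the intestinal epithelium in the organoids and by the Lgr5 promoter of crypt base stem cells in the mice. The labels list the samples other than SCe as untreated, whereas the study's methods describe tamoxifen induction. RPL22.HA is an epitope-tagged ribosomal protein that Cre switches on, used to pull down ribosomes. In RNA-seq the WT and SCe lines carry that allele and the Rptor fl/fl lines do not, so that its effect and that of Rptor cannot be told apart there. Rptor fl/fl and SCe organoids differ in genotype and in medium. In RNA-seq the WT lines in standard medium give a comparison for each, whereas in Ribo-seq of organoids, which has no such group here, the 2 cannot be told apart. Per the methods, animals of both sexes were used, aged 8 to 12 weeks.

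The libraries held 772077 to 67598878 assigned reads, with the fewest in the WT mice. As a check of the labels, WT lines held Rptor RNA at 51.5 and 47.9 CPM (counts scaled by library size with TMM), Rptor fl/fl lines 14.8 and 15.5, and SCe cultures 60.8, 54.0 and 53.7. It was lower in Rptor fl/fl than in WT lines by a log2 fold change of -1.71 (SE 0.0835, adjusted p = 0.00516). Rptor footprints were 17.3, 18.7 and 16.0 CPM in Rptor fl/fl against 15.2, 41.9 and 21.0 in SCe organoids (log2 fold change -0.53, adjusted p = 0.318), and 32.6, 34.4 and 36.9 in Rptor fl/fl against 41.7, 39.7 and 44.7 in WT mice (-0.28, adjusted p = 0.150). Lower Rptor was therefore detected in the RNA-seq of organoids, and did not pass the test in the footprints, where the mouse groups did not overlap. The first SCe RNA-seq library stood apart from the other 2: its read counts differed from theirs by a chi-square per degree of freedom of 172 to 192, against 19.8 between the other 2, and its summed enterocyte markers (12 genes) were 1016 CPM against 5430 to 6400. Results that rest on that RNA library are given with and without it. The first SCe footprint sample deviated as well, with a chi-square per degree of freedom of 18.0 and 44.1 against the other 2, beside 9.03 between those. Its summed enterocyte markers were 1559 CPM against 3392 and 4163. In the mice the enterocyte marker list summed to 69023 CPM or more, against 473 to 771 CPM for the 10 stem cell markers, and immune (2703 to 3073 CPM) and pancreatic acinar (1070 to 2740 CPM) markers were also present, although the Cre that switches on the tag is driven by Lgr5. In organoid RNA-seq the immune and stroma lists were near 0, at no more than 1.17 and 6.25 CPM.

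Tight junctions seal the space between neighbouring epithelial cells near their apical side. Claudins are membrane proteins with 4 spans that polymerise into the strands of the junction and decide which ions pass: claudin-2 and claudin-15 form channels for small cations in the gut, whereas claudin-3, claudin-4 and claudin-8 are counted among the sealing claudins. Claudin-7 lies largely along the lateral membrane of intestinal cells. Occludin (Ocln) is a tetraspan protein of the MARVEL family in the same strands, JAM-A (F11r) is an immunoglobulin-type adhesion molecule, and ZO-1 (Tjp1) is the scaffold that ties the strands to actin.

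Cldn3 and Cldn4 are neighbouring single-exon genes on chromosome 5 (mm10, 134986214 to 134987472 on the plus strand and 134945119 to 134946934 on the minus strand). They are the only members whose coding sequence shares 28-base windows with another gene, 8 of 630 windows in Cldn3 and 8 of 603 in Cldn4, so a footprint from there cannot be placed in either gene by its sequence. The stretch is shown because it sets how far the counts of this pair are separable. Capitals mark the 35 shared bases (coding bases 211 to 245 of Cldn3 and 214 to 248 of Cldn4), with 30 bases on each side from chr5:134986625-134986719 (plus) and chr5:134946468-134946562 (minus), and 78 of the 95 aligned bases match.
Cldn3: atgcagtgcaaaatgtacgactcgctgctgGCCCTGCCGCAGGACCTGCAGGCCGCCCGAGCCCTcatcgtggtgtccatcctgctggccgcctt
Cldn4: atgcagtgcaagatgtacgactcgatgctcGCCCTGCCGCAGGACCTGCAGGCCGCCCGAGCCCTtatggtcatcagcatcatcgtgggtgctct
No window of the other 8 members was shared. Those genes lie on X (Cldn2, 139800828 to 139811386), 11 (Cldn7, 69964779 to 69967885), 16 (Cldn8, 88560828 to 88563183), 5 (Cldn15, 136966616 to 136975858), 8 (Cldn23, 35824712 to 35826559), 7 (Tjp1, 65296165 to 65527781), 13 (Ocln, 100496507 to 100552718) and 1 (F11r, 171437535 to 171464603), all in mm10. Cldn3, Cldn4, Cldn8 and Cldn23 have a single coding exon, as does Cldn2 with a separate leader exon, whereas the main transcript of Tjp1 is coded by 28 exons.

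Per unit of length, Cldn7 was the most abundant member in all 7 groups and Cldn8 or Cldn23 the least in RNA. In WT organoids the mean RNA level in TPM, transcripts scaled by length and library size, fell in the order Cldn7 573, Cldn2 214, Cldn15 196, Cldn3 138, F11r 81.5, Ocln 77.5, Cldn4 50.2, Tjp1 35.5, Cldn23 11.6 and Cldn8 1.96, and the 2 lines of each neighbour in that order did not overlap. In Rptor fl/fl lines Cldn7 again led at 607 TPM, and 3 neighbouring pairs overlapped (Cldn2 with Cldn15, Cldn3 with Ocln, Ocln with Cldn4). In SCe cultures Cldn7 stood at 293 TPM and Cldn2 at 225, and 4 neighbouring pairs overlapped (Cldn4 with Cldn3, Cldn3 with Cldn15, Cldn15 with F11r, Cldn8 with Cldn23). The ranking was thus separable throughout in WT lines only.

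For footprints, levels between genes are given as CPM per kilobase of reference sequence. Cldn7 stood at 1099.6 in Rptor fl/fl organoids, 946 in SCe organoids, 878 in WT mice and 950.3 in Rptor fl/fl mice. Cldn2, the cation channel claudin, held the third place in Rptor fl/fl organoids at 235 and the ninth of 10 in both mouse groups, at 19.3 in WT and 21.1 in Rptor fl/fl mice. Its 6 organoid samples ran from 155 to 247 and its 6 mice from 17.9 to 25.6; the organoid and mouse reads were assigned to different reference sequences, so this contrast is a description without a test. Cldn15, the other cation channel claudin, ran from 87.1 to 235 in organoids and from 253 to 289 in mice. Cldn15 exceeded Cldn2 in each of the 6 mice, whereas in the organoids the Cldn2 mean was the higher in both groups. In SCe organoids every Cldn2 value (155 to 223) lay above every Cldn15 value (87.1 to 123). In Rptor fl/fl organoids the order was not separable, as Cldn15 (235) exceeded Cldn2 (224) in sample 1. Neighbouring ranks overlapped in 1 pair in Rptor fl/fl organoids (Cldn2 with Cldn15), in 6 pairs in SCe organoids and in 2 pairs in each mouse group, among them Cldn23 with Cldn2 in both.

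**Figure D1:**
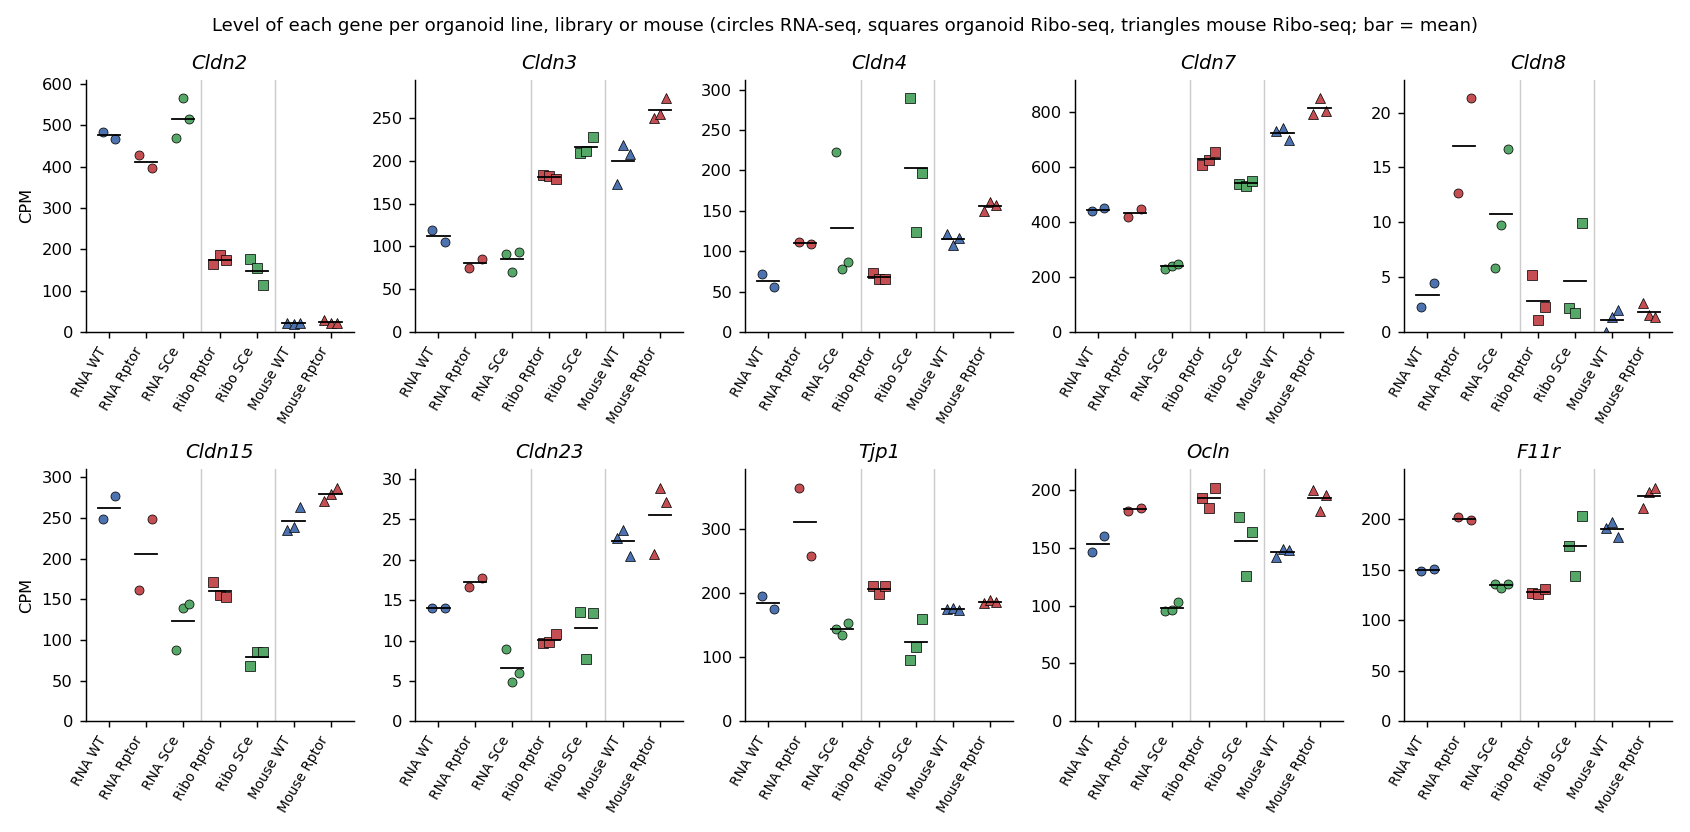
CPM (y axis, linear from 0) of each member in every line, library or mouse, by group (x axis), with RNA-seq as circles, organoid Ribo-seq as squares and mouse Ribo-seq as triangles, the line marking the mean. Cldn2 lies at 113 to 565 CPM in organoids and at 19.2 to 28.3 CPM in mice, and the first SCe RNA library lies far above the other 2 for Cldn4 (222 against 77.6 and 86.6 CPM); values of different assays were scaled separately.

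The first comparison set the RNA of Rptor fl/fl lines against that of WT lines, which differ in Rptor and in the RPL22.HA allele. Cldn4, Cldn8, Tjp1 and F11r rose in Rptor fl/fl lines and Cldn3 fell, while Cldn2, Cldn7, Cldn15, Cldn23 and Ocln did not pass the test. Of 14131 genes tested, 11.6% were called higher and 11% lower, against 4 and 1 of the 10 members, and the members' median log2 fold change was 0.28 beside -0.0049 over all genes.

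Cldn8, a sealing claudin with the fewest reads of the set, had 2.25 and 4.42 CPM in WT and 12.7 and 21.3 CPM in Rptor fl/fl lines. The groups did not overlap, and the fitted level was 5.11-fold higher (log2 fold change 2.35, SE 0.417, adjusted p = 0.0249). Cldn4 rose from 71.7 and 55.1 CPM to 112 and 109 CPM (1.74-fold, log2 0.80, SE 0.133, adjusted p = 0.0224). Both of its Rptor fl/fl lines lay above both WT lines, with a wider gap than either group's own spread. Cldn3, its neighbour on chromosome 5, went the other way, from 119.6 and 106 CPM to 74.9 and 85.3 CPM (log2 -0.49, SE 0.0972, adjusted p = 0.0306), again without overlap. The sealing claudins therefore did not move as one group.

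The scaffold Tjp1 stood at 195 and 175 CPM in WT and at 364 and 258 CPM in Rptor fl/fl lines (log2 0.75, SE 0.178, adjusted p = 0.0446). The 2 mutant lines differed from each other by more than the WT lines did, although both were the higher. F11r had the tightest values of the set, 148 and 151 CPM against 202 and 199 CPM (log2 0.42, SE 0.0542, adjusted p = 0.0157). Ocln was at 147 and 160.2 CPM in WT and at 182 and 185 CPM in Rptor fl/fl lines, without overlap, and did not pass (log2 0.26, SE 0.0682, adjusted p = 0.0574).

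Of the channel claudins, Cldn2 was at 485 and 467 CPM in WT and at 427 and 396 CPM in Rptor fl/fl lines (log2 -0.21, SE 0.0753, adjusted p = 0.109). Cldn15 was at 249 and 277 CPM against 161 and 249 CPM, the second Rptor fl/fl line level with the first WT line (log2 -0.36, SE 0.215, adjusted p = 0.280). Cldn7 was at 441 and 451 CPM against 420.3 and 447 CPM, and its 95% interval ran from -0.23 to 0.15 on the log2 scale. Cldn23 was at 14.0 and 14.0 CPM against 16.6 and 17.8 CPM (log2 0.30, SE 0.0862, adjusted p = 0.0685). In all, 8 of the 10 members had groups that did not overlap, beside 69.0% of all genes.

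With 2 lines a group, no call held under every leave-out. Without WT line 1 the adjusted p was 0.0984 for Cldn3, 0.0910 for Tjp1 and 0.0797 for F11r, and without WT line 2 it was 0.0501, 0.139 and 0.0816, in the same order. Without Rptor fl/fl line 1 it was 0.0803 for Cldn3, 0.0700 for Cldn4 and 0.0546 for Tjp1, whose log2 fold change dropped to 0.48 and whose call was also lost with a length offset (0.0538). With all RNA-seq groups in 1 fit Cldn3, Cldn4 and Cldn8 were lost (adjusted p = 0.103, 0.362 and 0.0551). Without Rptor fl/fl line 2 it was 0.0556 for Cldn4 and 0.0589 for Cldn8, while Cldn15 then passed at -0.69 (adjusted p = 0.0308). Marker lists of cell types moved with the genotype: the summed level was 5021 to 6765 CPM in WT against 2118 to 3451 CPM in Rptor fl/fl lines for the 10 stem cell genes, 4252 to 5032 against 750.2 to 1583 for the 7 Paneth cell genes, and 1761 to 1902 against 3088 to 4291 for the 7 goblet cell genes. Their part in the member results was not tested, and in bulk samples fewer cells of a type and less RNA per cell cannot be told apart.

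**Figure D2:**
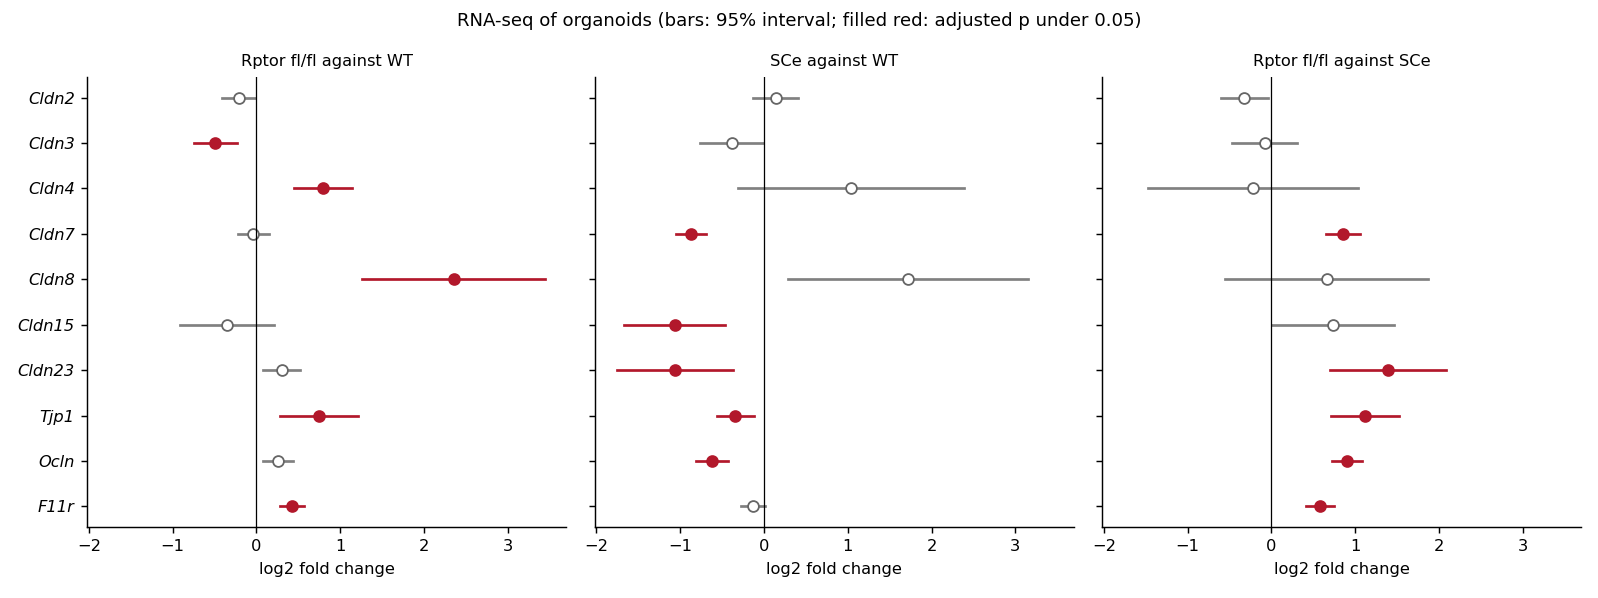
Log2 fold changes of the members in RNA-seq (x axis) with their 95% intervals in the 3 organoid comparisons, filled red where adjusted p is under 0.05. Called members are 4 higher and 1 lower in Rptor fl/fl against WT, 5 lower in SCe against WT and 5 higher in Rptor fl/fl against SCe; the panels share groups.

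The second comparison set the SCe medium against the standard culture, in organoids that carry the same alleles. The channel claudin Cldn15, the lateral Cldn7, Cldn23, Tjp1 and Ocln were lower in SCe cultures, and no member was called higher by edgeR. Cldn8 was higher at an unadjusted p under 0.05 and was called by DESeq2 (adjusted p = 0.00586). Over the 14925 genes tested, 22.4% were called higher and 19.9% lower, and the member median was -0.36 beside 0.02 over all genes.

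Cldn7 was at 231, 241 and 249 CPM in the SCe cultures against 441 and 451 CPM in WT (log2 -0.87, SE 0.0700, adjusted p = 0.00179). Ocln was at 94.98, 96.0 and 103 CPM against 147 and 160.2 CPM (log2 -0.62, SE 0.0750, adjusted p = 0.00415). Both were well separated from WT, and both stayed past the threshold whichever single library was left out. Cldn15 was at 87.1, 139 and 145 CPM against 249 and 277 CPM (log2 -1.07, SE 0.236, adjusted p = 0.0207). Cldn23 was at 8.96, 4.92 and 5.97 CPM against 14.0 in both WT lines (log2 -1.07, SE 0.271, adjusted p = 0.0304), and Tjp1 at 144, 134 and 153 CPM against 195 and 175 CPM (log2 -0.34, SE 0.0870, adjusted p = 0.0304). Each of these groups lay wholly below WT.

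Cldn4 was at 222 CPM in the first SCe library and at 77.6 and 86.6 CPM in the others, all above the WT lines (log2 1.04, SE 0.525, adjusted p = 0.168). Cldn8 was at 5.82, 9.78 and 16.6 CPM, also above WT (log2 1.71, SE 0.559, adjusted p = 0.0609). Cldn3, at 91.2, 70.1 and 93.4 CPM, lay below WT (log2 -0.39, SE 0.146, adjusted p = 0.0886). The values of F11r were 136, 131 and 135 CPM (log2 -0.13, SE 0.0562, adjusted p = 0.115), and those of Cldn2 were 469, 565 and 515 CPM, overlapping WT (log2 0.14, SE 0.105, adjusted p = 0.334). Cldn2 was the only member of 10 whose groups overlapped, beside 69.0% of all genes without overlap.

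Without the first SCe library all 10 members were called, 3 higher (Cldn2 0.20, Cldn4 0.39 and Cldn8 2.01, adjusted p = 0.0482, 0.0476 and 0.00786) and 7 lower, among them Cldn3 at -0.44 and F11r at -0.15 (adjusted p = 0.0425 and 0.0387), while calls over all genes rose from 6309 to 9530. Without WT line 1 or line 2 the adjusted p was 0.0877 or 0.116 for Cldn15, 0.135 or 0.137 for Cldn23 and 0.180 or 0.0869 for Tjp1, and without SCe library 2 or 3 it was 0.0607 or 0.0968 for Cldn23 and 0.0881 or 0.0528 for Tjp1. With total counts both were lost as well (0.0641 and 0.0852), and Tjp1 also with all RNA-seq groups in 1 fit (0.0926). The epithelial marker list (8 genes) summed to 4384 to 4800 CPM in SCe cultures against 7985 to 8367 CPM in WT, and the goblet list to 247 to 480.5 against 1761 to 1902 CPM. The summed stem cell list was lower too (2614 to 3667 against 5021 to 6765 CPM), as were the Paneth list (374 to 3191 against 4252 to 5032) and the enterocyte list (1016 to 6400 against 7225 to 7403). In such sums, here and in the other comparisons, the most abundant genes weigh most. A sum alone therefore cannot show whether the single genes of a list moved together, which was not tested. The paper examined single stem cell genes (Lgr5, Mex3a and Axin2) in SCe cultures relative to WT by RT-qPCR. The part of these lists in the lower junction genes was not tested.

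The third comparison set the RNA of Rptor fl/fl lines beside that of SCe cultures. It reuses the Rptor fl/fl and SCe libraries of the first pair of comparisons, so its values are not independent of theirs. Cldn7, Cldn23, Tjp1, Ocln and F11r were higher in Rptor fl/fl lines and none was called lower by edgeR. Cldn2 was lower at an unadjusted p under 0.05 and was called by DESeq2 (adjusted p = 0.0119). Of 15103 genes, 21.0% were called higher and 21.8% lower, and the member median was 0.70 beside -0.01 over all genes.

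The differences were 0.86 for Cldn7 (SE 0.0789, adjusted p = 0.00206), 1.39 for Cldn23 (SE 0.273, adjusted p = 0.0137) and 1.12 for Tjp1 (SE 0.161, adjusted p = 0.00581) on the log2 scale. Ocln differed by 0.90 (SE 0.0723, adjusted p = 0.00156) and F11r by 0.58 (SE 0.0653, adjusted p = 0.00308). In each of the 5 the lowest Rptor fl/fl line was above the highest SCe library. Cldn2 (-0.32, SE 0.111, adjusted p = 0.0660) and Cldn15 (0.73, SE 0.287, adjusted p = 0.0936) also did not overlap between the groups, which gives 7 of 10 members without overlap, beside 68.2% of all genes. Cldn3 (-0.08), Cldn4 (-0.22) and Cldn8 (0.66) overlapped, with 95% intervals from -0.47 to 0.30, from -1.48 to 1.03 and from -0.55 to 1.86.

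Without the first SCe library Cldn4 turned to 0.42 (adjusted p = 0.00514) and Cldn2 was called lower at -0.39 (adjusted p = 0.0122). The call on Cldn23 was lost without Rptor fl/fl line 1, Rptor fl/fl line 2 or SCe library 3 (adjusted p = 0.0766, 0.0867 and 0.0546), whereas Cldn7, Tjp1, Ocln and F11r kept theirs under all 5 leave-outs. Summed goblet markers (3088 to 4291 against 247 to 480.5 CPM) and epithelial markers (8452 to 8556 against 4384 to 4800 CPM) were higher in Rptor fl/fl lines as well, and their part in these results was not tested.

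The fourth comparison measured footprints in the same kinds of organoids. Cldn15 and Tjp1 had more footprints in Rptor fl/fl than in SCe organoids and Cldn4 had fewer. These were 2 and 1 of 10 members, beside 6.63% of 10817 genes called higher and 9.84% called lower, and the member median was -0.0071 beside -0.02 over all genes.

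Cldn4 footprints were 72.8, 65.6 and 65.4 CPM in Rptor fl/fl and 289, 124 and 197 CPM in SCe organoids. Every Rptor fl/fl sample lay below every SCe sample, and the fitted difference was -1.59 on the log2 scale (SE 0.280, adjusted p = 0.00687). Cldn15 footprints were 171, 155 and 153 CPM against 68.4, 84.7 and 85.1 CPM (2.01-fold, log2 1.01, SE 0.165, adjusted p = 0.00502). Both calls held under each of the 6 leave-outs. Tjp1 was at 211, 199 and 210.3 CPM against 94.9, 115 and 159.8 CPM (log2 0.74, SE 0.208, adjusted p = 0.0440). It was lost without Rptor fl/fl sample 1, 2 or 3 (adjusted p = 0.138, 0.122 and 0.152) or without SCe sample 2 (0.100), and also with total counts (0.0667) and a length offset (0.0922).

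Cldn7 was at 610.4, 629 and 657 CPM against 541, 533 and 551 CPM (log2 0.22, SE 0.153, adjusted p = 0.355). F11r was at 127, 126 and 131 CPM against 173, 144 and 203 CPM (-0.44, SE 0.173, adjusted p = 0.115), Ocln at 193, 184 and 202 CPM against 177, 126 and 164 CPM (0.31, SE 0.175, adjusted p = 0.262), and Cldn3 at 184, 182 and 179 CPM against 209, 211 and 228 CPM (-0.25, SE 0.147, adjusted p = 0.274). None of these 4 overlapped between the groups and none passed the test, and with the 3 called genes that made 7 of 10 members without overlap, beside 39.3% of all genes. Cldn2 (165, 185 and 173 against 176, 156 and 113 CPM) and Cldn23 (9.64, 9.85 and 10.8 against 13.6, 7.70 and 13.4 CPM) overlapped. Cldn8 had 31, 7 and 19 footprints against 4, 2 and 43, so that its difference of -0.91 (SE 0.740, adjusted p = 0.436) rested on SCe sample 3 and became 0.52 without it. The summed enterocyte markers were 6625 to 6930 CPM in Rptor fl/fl and 1559 to 4163 CPM in SCe samples, and the epithelial list 15416 to 15546 against 7289 to 10605 CPM. Stem cell markers were higher too (6272 to 6424 against 2830 to 4877 CPM). So were Paneth (6315 to 8863 against 2577 to 4198) and goblet markers (3222 to 5247 against 1187 to 1576). In RNA the stem cell and Paneth lists overlapped between Rptor fl/fl and SCe organoids (2118 to 3451 against 2614 to 3667, and 750.2 to 1583 against 374 to 3191 CPM). The part of these lists was not tested.

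The fifth comparison asked whether footprints changed by more or less than the RNA, as translation efficiency (TE), the interaction of assay and group in 1 model over both kinds of library. The TE of F11r was lower in Rptor fl/fl than in SCe organoids and no other member was called. Of 10747 genes, 1.12% were called higher and 1.81% lower (120 and 195 genes, against 65 and 55 with a length offset). No member was called higher by edgeR or DESeq2, and only Cldn2 was higher at an unadjusted p under 0.05. The estimate was below 0 for 8 of 10 members, with a median of -0.56 beside -0.03 over all genes.

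F11r RNA was at 202 and 199 CPM in Rptor fl/fl against 136, 131 and 135 CPM in SCe organoids, while its footprints were at 127, 126 and 131 against 173, 144 and 203 CPM. RNA was thus higher and footprints lower in Rptor fl/fl, although the footprint difference alone did not pass (adjusted p = 0.115). The ratio of mean footprint to mean RNA CPM was 0.638 against 1.29 (log2 difference -0.97, SE 0.191, adjusted p = 0.0286). The same ratio was 0.616 against 1.58 for Cldn4 (-1.32, SE 0.560, adjusted p = 0.219), 0.587 against 1.75 for Cldn23 (-1.58, SE 0.391, adjusted p = 0.0580), 1.46 against 2.26 for Cldn7 (-0.58, SE 0.172, adjusted p = 0.0966) and 1.05 against 1.58 for Ocln (-0.54, SE 0.2001, adjusted p = 0.164). Only the channel claudins had estimates above 0, Cldn2 with 0.62 (SE 0.252, adjusted p = 0.199) and Cldn15 with 0.33 (SE 0.332, adjusted p = 0.629). For Cldn3, Cldn8 and Tjp1 the estimates were -0.12, -1.58 and -0.32 (SE 0.195, 0.943 and 0.280).

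Without the first SCe RNA library Cldn4 was called at -1.95 (adjusted p = 0.0171) and Cldn23 at -1.85 (adjusted p = 0.0141), beside F11r at -0.97 (adjusted p = 0.0252). That fit kept the first SCe footprint sample, which held the most Cldn4 footprints of its group (289 against 124 and 197 CPM). Labels do not say whether that sample and the omitted RNA library share a culture. The F11r estimate stayed between -1.08 and -0.83 under every setting, yet its call was lost without Rptor fl/fl RNA line 1 or 2 (adjusted p = 0.140 and 0.128), SCe RNA library 2 or 3 (0.0907 and 0.0817), or Rptor fl/fl footprint sample 1, 2 or 3 (0.0674, 0.0820 and 0.0827). Cldn7 was called at -0.58 without SCe footprint sample 1 (adjusted p = 0.0344) and Cldn23 at -1.75 without SCe footprint sample 2 (adjusted p = 0.0396). With a length offset the adjusted p of F11r was 0.0594. RNA and footprints came from separate libraries, and for Rptor fl/fl from lines of different genotype. Rptor itself was called lower than in SCe organoids in RNA (log2 -1.89, SE 0.0973, adjusted p = 0.00105) and not in footprints (-0.53, adjusted p = 0.318). Its TE estimate was 1.43 (SE 0.390, adjusted p = 0.0777). How far the Rptor fl/fl material of the 2 assays matched was not tested.

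**Figure D3:**
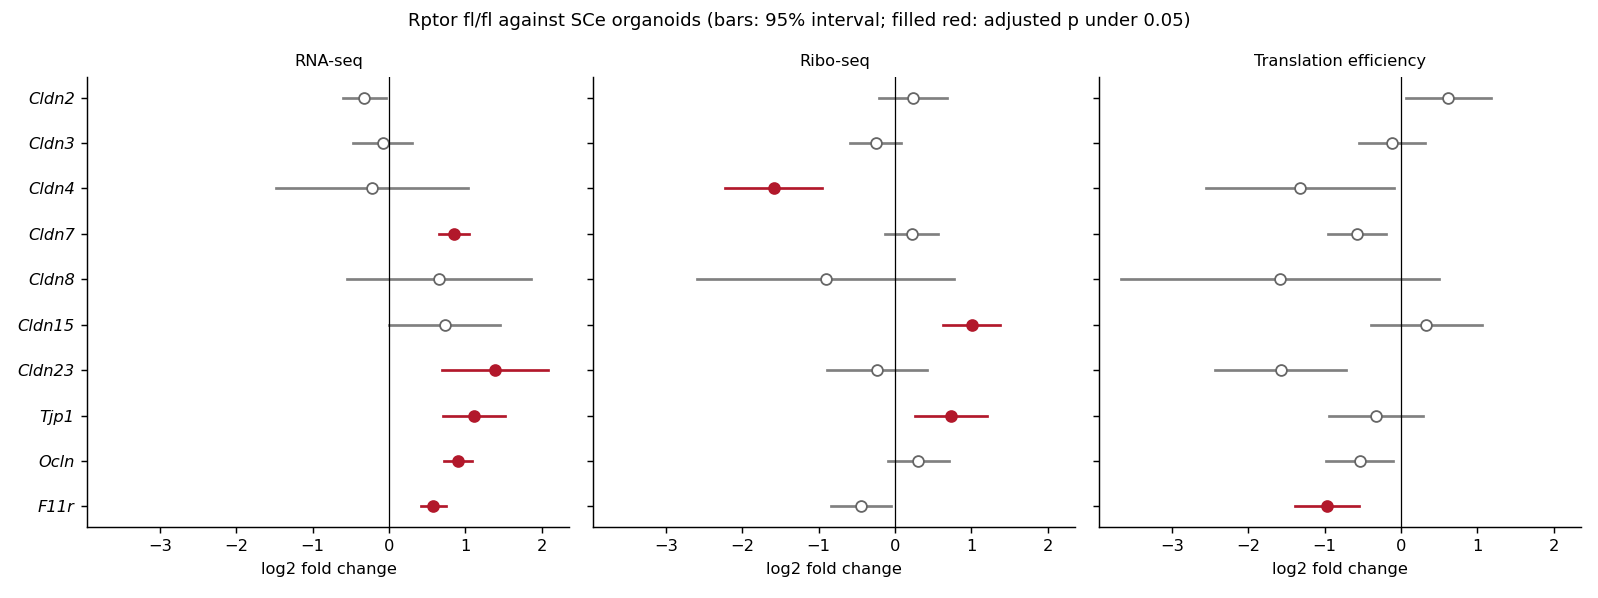
Log2 differences between Rptor fl/fl and SCe organoids (x axis) for the members in RNA-seq, Ribo-seq and TE, with 95% intervals and red filling where adjusted p is under 0.05. F11r is above 0 in RNA (0.58) and below 0 in footprints (-0.44), and the TE estimate is below 0 for 8 of the 10 members.

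The last comparison measured footprints in the intestine of Rptor fl/fl and WT mice. Cldn3, Cldn4 and Ocln had more footprints in Rptor fl/fl mice and no member was lower in the edgeR fit, at an unadjusted p under 0.05 or by DESeq2. These were 3 of 9 members tested, beside 7.47% of 11515 genes called higher and 5.97% lower, and the median over the 9 was 0.24 beside -0.02 over all genes. With total counts in place of TMM scaling the calls over all genes shifted from 860 higher and 687 lower to 590 higher and 1062 lower, while the same 3 members were called.

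Cldn4 footprints were 121, 107 and 116 CPM in WT and 149.6, 161 and 158 CPM in Rptor fl/fl mice (log2 0.45, SE 0.0849, adjusted p = 0.00211). Ocln was at 142, 149 and 148 CPM against 200.0, 182 and 196 CPM (log2 0.39, SE 0.0804, adjusted p = 0.00447). Cldn3 was at 173, 218 and 208 CPM against 250.4, 255 and 273 CPM (log2 0.35, SE 0.0875, adjusted p = 0.0138). In all 3 the mutant mice lay above every WT mouse, by 1.28-fold to 1.37-fold in the fit. The call on Cldn3 was lost without WT mouse 3 or Rptor fl/fl mouse 3 (adjusted p = 0.0512 and 0.0628), and with a length offset those on Cldn3 (0.0703) and Ocln (0.125) were lost, which left Cldn4.

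The other tested members also had estimates above 0 without passing. Values were 733, 744 and 699 CPM in WT against 794, 851 and 805 CPM for Cldn7 (log2 0.17, SE 0.0677, adjusted p = 0.112), 191, 197 and 182 against 211, 227 and 231 for F11r (0.24, SE 0.0790, adjusted p = 0.0591) and 235, 238 and 264 against 270.5, 279.8 and 287 for Cldn15 (0.17, SE 0.0769, adjusted p = 0.160). Tjp1 was at 174, 177 and 173 CPM against 184, 188 and 187 CPM (0.09, SE 0.0757, adjusted p = 0.471). Together with the called genes this gave 7 of 9 members without overlap, beside 31.1% of all genes. Without Rptor fl/fl mouse 1, Cldn7 and F11r also passed (0.20 and 0.28, adjusted p = 0.0361 and 0.0159).

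Cldn2 (21.5, 19.2 and 20.8 against 28.3, 21.3 and 21.5 CPM) and Cldn23 (22.8, 23.7 and 20.5 against 20.8, 28.9 and 27.2 CPM) overlapped between the groups. Cldn8 was too low to be tested, with 0, 3 and 11 footprints in WT and 8, 5 and 11 in Rptor fl/fl mice. The count of 0 came from the shallowest library and allows up to 3.89 CPM, a limit from counting error only. Marker lists moved with the genotype here too, with enterocyte markers at 69023 to 70859 CPM in WT and 79023 to 83810 in Rptor fl/fl mice, goblet markers at 25553 to 25866 against 30240 to 33809, and Paneth markers at 10417 to 11290 against 5373 to 7207. Stem cell markers were at 745 to 771 CPM in WT against 473 to 744 in Rptor fl/fl mice, and stroma markers at 870 to 933 against 1102 to 1307. Their part in the member results was not tested.

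**Figure D4:**
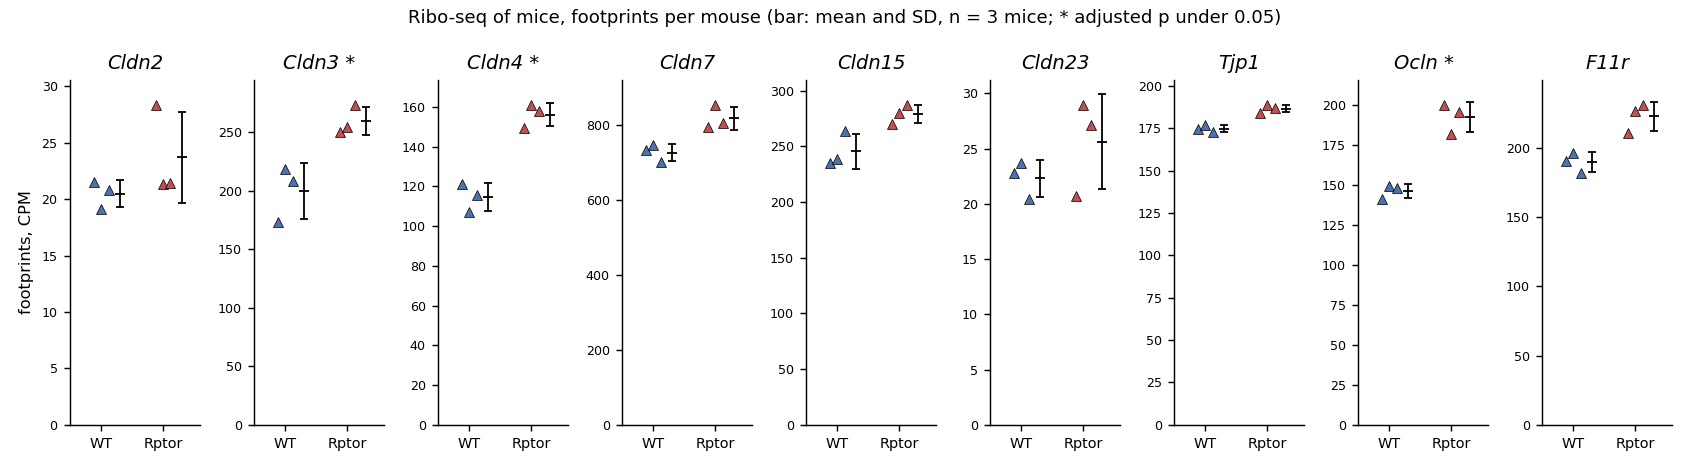
Footprints in CPM (y axis, from 0) of 9 members in 3 WT and 3 Rptor fl/fl mice, with the mean and SD beside the points and a star where adjusted p is under 0.05. Cldn3, Cldn4 and Ocln carry the star, and the mutant mice lie above all WT mice in 7 of the 9 panels.

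The start regions of the 3 genes with more footprints in Rptor fl/fl mice are shown because they moved together there. The windows are RefSeq sequences (GRCm38.p6) of 250 bases before to 50 bases after the start of Cldn3 (chr5:134985964-134986263, plus), Cldn4 (chr5:134946885-134947184, minus) and Ocln (chr13:100552669-100552968, minus). Such windows were matched for 8 of the 10 members. Capitals mark CAGGTG or, on the other strand, CACCTG, an E-box of the kind that SNAI and ZEB repressors bind.
Cldn3: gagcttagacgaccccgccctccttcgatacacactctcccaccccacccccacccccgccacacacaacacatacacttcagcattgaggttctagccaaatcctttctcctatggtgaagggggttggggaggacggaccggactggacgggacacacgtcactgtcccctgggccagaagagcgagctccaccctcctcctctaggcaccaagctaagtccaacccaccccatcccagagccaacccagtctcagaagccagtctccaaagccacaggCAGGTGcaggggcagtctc
Cldn4: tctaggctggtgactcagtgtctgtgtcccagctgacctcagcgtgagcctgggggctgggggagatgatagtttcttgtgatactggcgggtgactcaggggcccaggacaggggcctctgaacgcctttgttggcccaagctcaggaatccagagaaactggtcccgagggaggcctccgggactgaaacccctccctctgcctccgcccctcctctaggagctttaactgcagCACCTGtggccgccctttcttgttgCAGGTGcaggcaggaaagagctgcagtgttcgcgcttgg
Ocln: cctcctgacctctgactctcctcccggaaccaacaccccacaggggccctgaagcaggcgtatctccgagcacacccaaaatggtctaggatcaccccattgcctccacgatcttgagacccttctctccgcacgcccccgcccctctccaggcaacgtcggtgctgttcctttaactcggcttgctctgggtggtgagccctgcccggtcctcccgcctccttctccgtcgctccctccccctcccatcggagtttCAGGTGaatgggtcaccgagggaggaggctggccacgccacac
Counted from the start, the first hexamer begins at 31 in Cldn3, at -14 in Cldn4 and at 7 in Ocln. F11r holds 1 as well, at -122, which gives 4 of 8 members, beside 20.21% of 32851 windows of that length. GGGCGG, on either strand, was present in 6 of 8 members and in 35.66% of all windows, and TATAAA in 1 of 8 (Cldn2) and in 13.62%. A match is a description of the letters and not a binding site.

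In the organoid Ribo-seq tables the 5′ ends of transcripts upstream of the coding sequence were entries of their own, which the counts above leave out. Of all footprints of the 2 kinds of entry, Cldn7 had 20.4% to 25.1% on 5′ entries in Rptor fl/fl and 16.0% to 26.1% in SCe organoids, and Cldn15 14.8% to 19.4% and 8.68% to 23.2%. These are above the 2.97% to 6.98% of all footprints, pooled over genes, that lay on 5′ entries in the 6 libraries. Abundant genes weigh most in a pooled share, and how many single genes exceed it was not counted. For Cldn4, at 6.61% to 9.44% and 6.999% to 13.9%, each sample lay above the share of its own library. The Cldn7 share rested on 988 to 1380 footprints in Rptor fl/fl samples and on 187 to 453 in SCe samples, and the groups overlapped. A share sums all 5′ entries of a gene, 5 for Cldn7 and 2 for Cldn15. Whether an entry overlaps coding sequence of another transcript of its gene was not checked. Transcript Cldn7-202 had 295 coding bases in the organoid reference and 865 bases in the mouse reference, which mostly joins 5′ and coding sequence. For Cldn2 the share was 13.8% to 16.9% in Rptor fl/fl samples and 2.21% to 20.6% in SCe samples. Tjp1, at 2.08% to 3.02%, lay below the share of its own library in the Rptor fl/fl samples. Cldn23 had 2 to 11 footprints on its 5′ entry in a sample and Cldn8 no more than 2. For Cldn3, Ocln and F11r the share ran from 2.86% to 14.1%, from 2.21% to 8.94% and from 0.903% to 11.6% over the 6 samples.

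**Figure D5:**
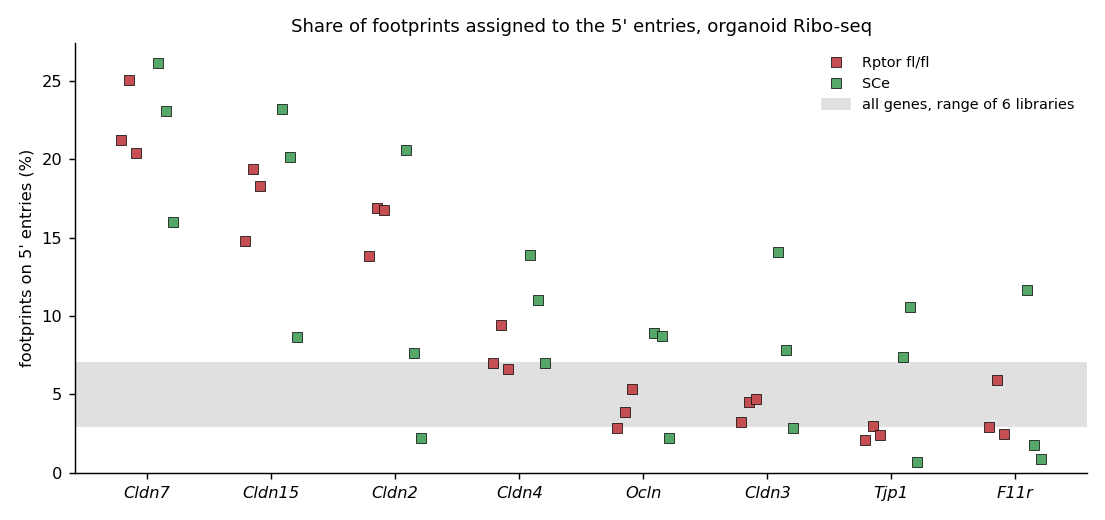
Percent of a gene's footprints on the 5′ entries (y axis) in 3 Rptor fl/fl and 3 SCe organoid samples. Shown are the 8 members with the most footprints. The grey band is the range, over the 6 libraries, of the share pooled over all genes (2.97% to 6.98%). All points of Cldn7 (16.0% to 26.1%) and Cldn15 (8.68% to 23.2%) lie above the band.

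The wider junction was read from 81 further genes in 8 lists: other claudins, tricellular and MARVEL proteins, immunoglobulin-type adhesion molecules, scaffolds, polarity proteins, junction regulators, adherens junction and desmosome genes. In Rptor fl/fl against WT organoids 21 of 67 tested genes were called higher and 4 lower (median 0.22), beside 11.6% and 11% of all genes. By list, 8 of 16 scaffold genes were called higher, and 0 of 5 desmosome genes were called in either direction. The 4 with the smallest adjusted p were Ildr1, an angulin of tricellular junctions (log2 1.61, adjusted p = 0.00516), the angiomotin-like scaffold Amotl1 (2.88, adjusted p = 0.0101), the adherens junction protein Nectin4 (1.45, adjusted p = 0.0108) and cingulin, Cgn (0.53, adjusted p = 0.0118).

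In SCe against WT organoids 4 of 67 were called higher and 27 lower (median -0.42), beside 22.4% and 19.9% of all genes, with 6 of 10 junction regulators and 4 of 5 desmosome genes lower. The leading genes were the protease Prss8 (-1.34, adjusted p = 0.00121), the polarity gene Pard6g (2.73, adjusted p = 0.00127), the ZO-3 gene Tjp3 (-1.06, adjusted p = 0.00156) and desmocollin-2, Dsc2 (-0.93, adjusted p = 0.00166). In Rptor fl/fl against SCe organoids 41 of 67 were called higher and 3 lower (median 0.72), beside 21.0% and 21.8% of all genes, with all 10 junction regulators higher. Prss8 (1.67, adjusted p = 0.00107), plakoglobin, Jup (1.05, adjusted p = 0.00110), the matriptase gene St14 (1.00, adjusted p = 0.00118) and Tjp3 (1.31, adjusted p = 0.00120) led there. Without the first SCe library the counts were 7 higher and 42 lower against WT, and 51 higher and 3 lower in Rptor fl/fl lines.

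In footprints 6 of 58 rose and 2 fell in Rptor fl/fl relative to SCe organoids (median 0.23), beside 6.63% and 9.84% of all genes, among them the myosin light chain kinase gene Mylk (2.35, adjusted p = 0.00227), Esam (-1.76, adjusted p = 0.0142) and Prss8 (0.91, adjusted p = 0.0147). For TE none of 58 was called higher by edgeR (1 at an unadjusted p under 0.05) and 8 were called lower (median -0.38), beside 1.12% and 1.81% of all genes, and 10 were lower without the first SCe RNA library. Of the 4 tricellular and MARVEL genes tested 3 were lower: Ildr1 (-2.09, adjusted p = 0.00807), Marveld3 (-1.40, adjusted p = 0.0192) and Lsr, also an angulin (-0.86, adjusted p = 0.0370). Nectin2 was lower as well (-1.17, adjusted p = 0.0267). In mice 7 of 61 were called higher and 2 lower (median 0.060), beside 7.47% and 5.97% of all genes, with 4 of 9 adherens junction genes higher. The leading genes were Dsc2 (0.49, adjusted p = 0.000529), the β-catenin gene Ctnnb1 (0.41, adjusted p = 0.00107), the E-cadherin gene Cdh1 (0.36, adjusted p = 0.00207) and the kinase gene Wnk4 (-1.76, adjusted p = 0.00169).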

How the data were processed

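RNA-seq and Ribo-seq were analysed from 23 libraries. Per the labels and the study's methods, the authors trimmed reads with cutadapt 1.18 and quantified them with Salmon 1.1.0 on GENCODE vM21 protein-coding transcripts (mm10). RNA-seq used whole transcripts, organoid Ribo-seq coding sequences plus separate 5′ entries, and mouse Ribo-seq mostly 5′ and coding sequence together. The deposited files give, for each transcript, an estimated count and a TPM. A table of the authors' own comparison (TE changes with p-values) was not used. The TPM was deposited with an effective length that subtracts a fixed fragment length also for footprints, so TPM was used for RNA levels only and CPM per kilobase of annotated length for Ribo-seq levels, a scale chosen after seeing the files.

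Estimated counts were summed per gene without the 5′ entries, rounded, and summed over the technical libraries of a line. Each comparison was fitted over all genes with edgeR 4.0.16 (R 4.3.3): filterByExpr, TMM scaling, quasi-likelihood test, Benjamini-Hochberg adjustment, calls at 0.05. Every adjusted p in the text is from that test, except where DESeq2 is named. TE was the interaction of assay and group. The script was checked on simulated counts. No replicate block was used, since the labels tie no replicate number to a shared animal or batch. The study's methods mention paired samples, from further VillinCre.ERT2.Rptor.fl/fl animals whose cultures were induced in vitro. Labels do not say whether any library here belongs to such a pair, so a pairing in RNA-seq may have been missed. Labels do not say that organoid lines came from separate animals, so p-values measure the spread between these samples. The members and gene lists were chosen with earlier results of these data known. Of the wider lists, the 4 called genes with the smallest adjusted p per comparison are named, except 1 that is not reported here. Cldn25 of these lists was not in the files and Igsf5 has more than 1 gene identifier, of which the more abundant was used. Alternatives were DESeq2 1.42.0, RLE and total-count scaling, no count filter, a length offset, a threshold of 0.01, the replicate block, technical libraries kept apart, 1 joint RNA fit and leave-outs. Where a leave-out left 1 line in a group, that line was assumed to vary like the other group.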

Additional observations from a re-analysis of the deposited data

Results flagged for a closer look

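Cldn3 moved in opposite directions in organoids and mice: its RNA was lower in Rptor fl/fl than in WT organoids (log2 -0.49, adjusted p = 0.0306 by edgeR, both Rptor fl/fl lines below both WT lines), and its footprints were higher in Rptor fl/fl than in WT mice (0.35, adjusted p = 0.0138, each of 3 mice above each of 3). The RNA call was lost with all RNA-seq groups in 1 fit, and the mouse call with a length offset. The difference between the 2 systems was not tested, since assay, reference sequence, Cre driver and tissue differ between them. Per the study's methods, samples of Lgr5Cre animals were also taken sooner after tamoxifen than those of VillinCre animals.

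F11r differed between assays within 1 contrast: the interaction of assay and group was -0.97 on the log2 scale (SE 0.191, adjusted p = 0.0286 by edgeR), with higher RNA (0.58) and fewer footprints (-0.44) in Rptor fl/fl than in SCe organoids. The footprint difference alone did not pass (adjusted p = 0.115 by edgeR). The interaction call was lost with a length offset, with the replicate block and without any 1 of the Rptor fl/fl footprint samples.

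In every organoid sample 2 members had a larger share of footprints on 5′ entries than all genes pooled in any of the 6 libraries (2.97% to 6.98%). The share was at least 20.4% in Rptor fl/fl and 16.0% in SCe organoids for Cldn7, and at least 14.8% and 8.68% for Cldn15. No comparison used these entries. How many single genes exceed the pooled share was not counted. Whether the entries overlap coding sequence of other transcripts of the same gene was not checked. No group held 4 or more samples, so single samples could not be compared with the rest of their group.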

How the results depend on the processing

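The cause of the changes below was not tested. Called members in Rptor fl/fl against WT RNA (main value 5) were 0 at a threshold of 0.01, 8 with technical libraries kept apart, 2 with all RNA-seq groups in 1 fit and 2 to 4 with 1 line left out; all calls went from 3195 to 143, 7208 and 1544. In SCe against WT (main value 5) they were 8 by DESeq2, 3 with total counts, 2 at 0.01, 9 with technical libraries kept apart and 2 to 10 with 1 left out. In Rptor fl/fl against SCe RNA (main value 5) DESeq2 gave 7 and leave-outs 4 to 7, and in footprints (main value 3) leave-outs gave 2 to 3. For TE (main value 1) they were 4 by DESeq2, 0 with a length offset, 0 at 0.01, 4 with technical libraries kept apart and 0 to 3 with 1 left out; all calls went from 315 to 1206, 120, 48 and 1312. In mice (main value 3) they were 1 with a length offset and 2 to 5 with 1 left out.

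Estimates of these members changed sign: Cldn7 in Rptor fl/fl against WT RNA (0.0054 with total counts, leave-outs from -0.070 to 0.0034, the last without Rptor fl/fl line 1), Cldn3 against SCe RNA (0.0023 with the replicate block, leave-outs from -0.21 to 0.014, the last without Rptor fl/fl line 1), Cldn4 there (-0.49 to 0.42, the last without SCe library 1), Cldn8 footprints (-1.28 to 0.52, the last without SCe sample 3), Cldn23 with a length offset (0.45 in organoid footprints, -0.0040 in mice) and Cldn3 TE (-0.21 to 0.00072, the last without SCe RNA library 2). Of 845 gene-by-setting values 727 kept direction and side of the threshold, 66 lost the call and 43 gained it.

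Deviations of same-numbered samples correlated at 0.30 (Rptor fl/fl and WT RNA), 0.14 to 0.16 (SCe and WT), 0.20 to 0.25 (Rptor fl/fl and SCe RNA), -0.044 to 0.029 (organoid footprints) and -0.0056 to 0.034 (mice). The Ribo-seq values gave no sign that the numbers pair the samples, but with so few samples a group they cannot exclude it. RNA-seq has no more than 2 pairs a comparison and the labels give the numbers no shared source, so pairing was not assumed there. With the replicate block the called members were 6, 4, 6, 2, 0 and 3 in the 6 comparisons, in the order reported, and calls over all genes 4751, 3154, 3413, 1228, 4 and 1305, against 3195, 6309, 6452, 1781, 315 and 1547 without it. Lost with the block were Cldn23 and Tjp1 in SCe against WT RNA (adjusted p = 0.0839 and 0.0699), Cldn23 in Rptor fl/fl against SCe RNA (0.0601), Tjp1 footprints in organoids (0.0584) and F11r TE (0.209), and gained were Ocln in the first comparison, Cldn8 in the second and Cldn8 and Cldn15 in the third (0.0322, 0.0413, 0.0327 and 0.0238). The shallowest WT mouse library and the SCe footprint samples limit what can be said of Cldn8 and Cldn23.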

Other observations

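Over the 3 RNA-seq groups of organoids the mean log2 CPM spanned most in Cldn8 (2.20), Cldn23 (1.35) and Cldn15 (1.12) and least in Cldn2 (0.32). As a description over the 7 RNA-seq lines or libraries, which fall into 3 groups and share their scaling, the genes with the highest Pearson correlation among 15135 were Olfr1048, Zfp398 and Lrrc49 for Cldn8 (0.975, 0.973 and 0.967), Arl10, Thap3 and Zfpm1 for Cldn23 (0.999, 0.998 and 0.997) and Cda, Prap1 and Papss2 for Cldn15 (0.998, 0.990 and 0.990).

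Salmon's split of reads between transcripts was similar in the 3 RNA-seq groups. Of the Cldn7 reads 80.4% in WT, 80.7% in Rptor fl/fl and 82.7% in SCe organoids went to Cldn7-201. For Tjp1 the share of Tjp1-202 was 70.3%, 71.3% and 65.5%, and for Ocln the share of Ocln-205 was 44.2%, 45.3% and 52.6%. These shares are group means of estimates and were not tested.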
